A study of Mus musculus with 10 samples.

Results

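The genes described are 9 that build the node of Ranvier and the axon-glia junctions beside it: Nfasc, Cntn1, Cntnap1, Cntn2, Cntnap2, Ank3, Sptbn4, Kcna1 and Kcna2. They were chosen by symbol, and all 9 were matched among the 26301 gene identifiers of the deposited count tables. The libraries came from whole spinal cord of C57BL/6 mice, the only strain named, with no mutation, transgene or treatment given in the labels. There were 2 libraries from males and 2 from females at 4 weeks of age, and 3 from males and 3 from females at 8 weeks. The series compares the cord at those ages. The labels give replicate numbers but do not say whether each is its own animal. The p-values therefore measure only the variation among these libraries, part of which may be technical.

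Nodes of Ranvier are the short gaps in a myelin sheath where sodium channels gather and the action potential is renewed. On each side the myelin loops are sealed to the axon at the paranode. Beyond that seal, under the compact myelin, the juxtaparanode holds potassium channels. Neurofascin, from Nfasc, exists as a neuronal form at the node and a glial form on the paranodal loops, where it meets the axonal pair contactin and Caspr, from Cntn1 and Cntnap1. Cntn2 and Cntnap2 encode the corresponding juxtaparanodal pair, with the Cntn2 protein present on both the axon and the glial membrane. Kcna1 and Kcna2 encode alpha subunits of the shaker-type potassium channels held there. Ank3 (ankyrin-G) and Sptbn4 (beta-IV spectrin) tie nodal proteins to the axonal cytoskeleton. The counts are per gene, so isoforms of neuronal and glial origin are summed.

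In the mouse reference GRCm38 the genes lie on 7 chromosomes. Cntnap2 and Kcna1 are on chromosome 6, Cntn1 on 15, Cntnap1 on 11, Ank3 on 10, Sptbn4 on 7 and Kcna2 on 3. Nfasc and Cntn2 are near neighbours on chromosome 1, both on the minus strand, with 1 RefSeq gene between them. The promoters of Cntn2, Cntnap2 and Nfasc are shown because these genes had the lowest p-values for age, with the neighbours Nfasc and Cntn2 differing in opposite directions. Each is the 250 bases before the first start that the RefSeq promoter table (GRCm38.p6) lists for the gene, printed 5′ to 3′ on the gene's strand with CG dinucleotides in capitals. The windows are chr1:132542941-132543190 (minus strand) for Cntn2, chr6:45059811-45060060 (plus strand) for Cntnap2 and chr1:132707327-132707576 (minus strand) for Nfasc.
Cntn2: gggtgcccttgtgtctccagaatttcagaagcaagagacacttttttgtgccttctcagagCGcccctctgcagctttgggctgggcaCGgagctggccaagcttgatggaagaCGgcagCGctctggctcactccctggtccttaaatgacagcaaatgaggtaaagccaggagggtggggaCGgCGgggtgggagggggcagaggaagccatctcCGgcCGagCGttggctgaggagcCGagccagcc
Cntnap2: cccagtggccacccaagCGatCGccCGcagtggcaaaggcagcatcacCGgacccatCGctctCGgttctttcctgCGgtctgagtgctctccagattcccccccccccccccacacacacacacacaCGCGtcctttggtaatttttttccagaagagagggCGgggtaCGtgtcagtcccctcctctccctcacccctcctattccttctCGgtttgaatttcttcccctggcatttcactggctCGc
Nfasc: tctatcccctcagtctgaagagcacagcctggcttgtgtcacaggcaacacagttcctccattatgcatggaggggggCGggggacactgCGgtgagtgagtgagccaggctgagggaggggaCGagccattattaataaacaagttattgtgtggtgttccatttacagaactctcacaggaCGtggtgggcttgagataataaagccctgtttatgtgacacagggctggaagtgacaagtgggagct
The Cntn2 window held 10 CG dinucleotides and the Cntnap2 window 13, and 37.8% and 31.5% of all 32851 RefSeq mouse promoters of this length held at least as many. The Nfasc window held 4, a number reached or passed by 62.2% of promoters. GC content was 61.2% for Cntn2, 59.6% for Cntnap2 and 52.0% for Nfasc, against a median of 52.4%. None of the 3 windows held the TATA box letters TATAAA on either strand, which 12.4% of promoters held. The letters ACAAAG, bound by SOX factors, were also absent from all 3, against 16.5% of promoters that held them. The counts do not say which start was used: Nfasc and Cntnap2 each have a second start in the table. Of the 9 genes, 6 have an entry there.

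Libraries held 8453559 to 11594610 counts assigned to genes. Replicates of each group differed beyond counting noise, with chi-square per degree of freedom from 1.92 to 11.2. Neuron markers (12 of 12 tested, summed 9567 to 11426 in CPM, that is, counts relative to the library's total) and mature oligodendrocyte markers (12 of 12, 39048 to 65577 CPM) were abundant in every library. Transcripts of other tissues were also present. Skeletal muscle markers were lower at 8 weeks in 12 of 12 genes, and their sum did not overlap between ages: 477 to 1928 CPM at 4 weeks and 37.8 to 147 at 8 weeks. Lung epithelium transcripts were high in male 8-week libraries 2 and 3 (Sftpc at 385 and 43.0 CPM), and adrenal cortex transcripts in both male 4-week libraries (Star at 41.2 and 35.8 CPM, at most 9.80 elsewhere). Schwann cell markers, which mark nerve roots with their own nodes, summed to 405 to 1396 CPM. Prph led the sensory ganglion list at 59.2 to 94.3 CPM. By age, 5 of 5 adrenal and 1 of 7 Schwann cell markers were called lower and 1 of 6 lung markers higher, with 1 of 8 astrocyte markers lower and 0 of 8 microglial and 0 of 8 tested sensory ganglion markers called. Fits without the libraries with lung or adrenal transcripts and with a muscle score are given below. The muscle score had a Pearson r of -0.91 with age, so muscle content and age cannot be told apart. Beyond those fits, how far these admixtures contribute to the values of the 9 genes was not tested. In RNA from whole tissue, fewer cells of a type and less RNA per cell cannot be told apart.

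All 9 genes were well measured, with 208 to 9218 counts per library. On a per-length scale (CPM per kilobase of annotated exons, mean ± SD over n = 10 libraries), the channel subunit Kcna1 was the most abundant at 130 ± 15 and its partner Kcna2 the least at 6.11 ± 2.11. The paranodal contactin Cntn1 came second at 88.6 ± 5.01. Nfasc at 60.4 ± 11.8, Cntn2 at 55.7 ± 7.30 and Cntnap1 at 47.6 ± 5.86 followed. Ank3 stood at 24.7 ± 3.48, Sptbn4 at 15.7 ± 1.29 and Cntnap2 at 9.84 ± 1.62. The order was the same with the longest transcript as the length. At 8 weeks alone Cntn2 (59.7 ± 4.88, SD, n = 6) stood above Nfasc (54.7 ± 5.56). All genes were measured in the same libraries. The SDs describe the spread among libraries and do not measure how firmly an order of genes holds within them. Exon lengths are from GENCODE on GRCm38, whereas the counts were made on mm9, so the levels per length are approximate. Sptbn4 shares exonic sequence with Gm20479 on its own strand and with Gm44924 on the other, so its counts are uncertain to that extent. The other 8 have no such overlap in the annotation.

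From 4 to 8 weeks the transcript of the juxtaparanodal contactin Cntn2 rose, and it was the only one of the 9 genes called. The paranodal contactin Cntn1 stayed within a narrow band at both ages. Nfasc was lower and Cntnap2 higher at 8 weeks without passing the threshold, and the scaffold genes Ank3 and Sptbn4 differed by less than their spread. Age was tested over both sexes with edgeR's quasi-likelihood test with sex as a term, and a gene was called at a Benjamini-Hochberg adjusted p under 0.05 over all 15540 tested genes. Among all tested genes 1.61% were called higher and 5.01% lower at 8 weeks (6.62% either way). Of the 9, 1 was called higher and 0 lower. A positive log2 fold change was found in 8 of the 9 and in 8022 of the 15540 tested genes. The median was 0.08 over the 9 and 0.0066 over all tested genes. Levels of the 9 moved together over the libraries (median Pearson r of pairs 0.73), so their signs are not separate observations. None of the 9 separated the ages completely. Over all tested genes, 2.89% had every 8-week library above every 4-week library and 4.84% every one below.

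**Figure D1:**
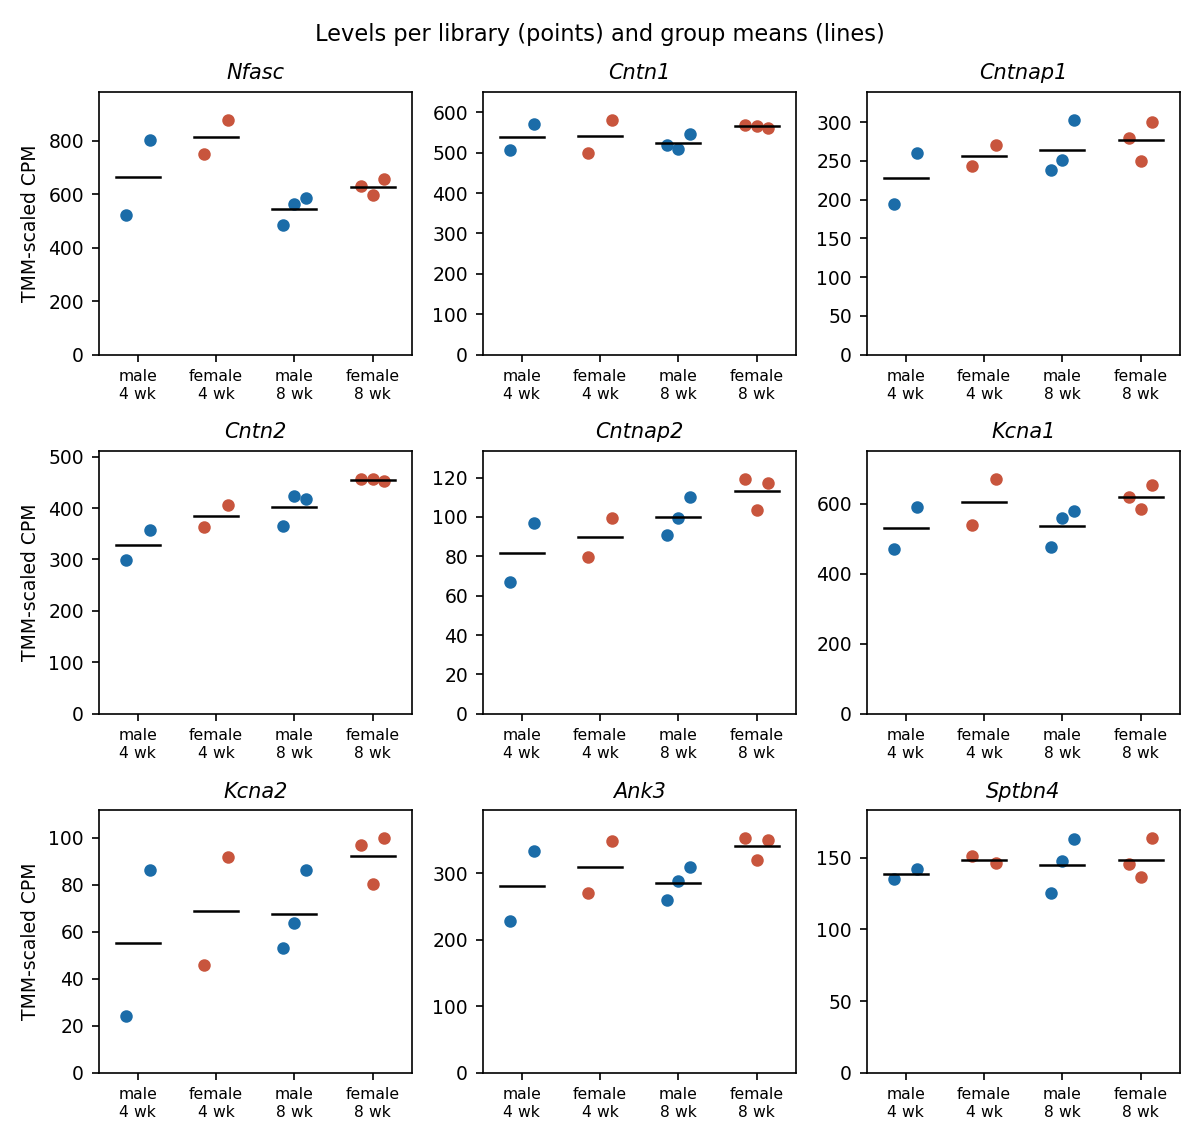
Levels of the 9 genes in each of the 10 libraries (points; y axis, TMM-scaled CPM from 0) by sex and age, with group means as lines. Cntn2 runs from 298 to 406 at 4 weeks and from 366 to 456 at 8 weeks, Nfasc has its 3 highest points at 4 weeks, and Kcna2 has 1 point at 24.0.

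Among the adhesion molecules of the paranode, Cntn1 showed the steadiest level of the 9. It was at 507 and 570 TMM-scaled CPM in male and 500 and 580 in female 4-week libraries. The 8-week values were 520, 510 and 545 in males and 569, 565 and 561 in females. The ages overlapped fully, the highest library exceeded the lowest by 1.16-fold, and the log2 fold change was 0.01 (SE 0.06, edgeR adjusted p = 0.923). Its axonal partner Cntnap1 was at 195 and 261 CPM in male and 243 and 271 in female 4-week libraries. At 8 weeks it was at 238, 252 and 302 in males and 280, 249 and 300 in females. Its lowest value belonged to male 4-week library 1, and 3 of 6 libraries at 8 weeks lay above every 4-week library. The log2 fold change was 0.16 (SE 0.09, edgeR adjusted p = 0.343).

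Nfasc, the gene shared by the node and the glial side of the paranode, was at 524 and 803 CPM in male and 750 and 877 in female 4-week libraries. Its 8-week levels were 485, 565 and 585 in males and 630, 599 and 657 in females. The 3 highest libraries were all from 4 weeks, while male 4-week library 1 lay among the 8-week values. The mean was 739 ± 152 (SD, n = 4) at 4 weeks and 587 ± 59.6 (n = 6) at 8 weeks. The log2 fold change was -0.33 (SE 0.10, edgeR adjusted p = 0.0613), the only negative one of the 9. The call turned on that library and on the method: without male 4-week library 1 the log2 fold change was -0.44 (edgeR adjusted p = 0.00217), with DESeq2 -0.32 (adjusted p = 0.0211), without male 4-week library 2 it was -0.21 (edgeR adjusted p = 0.159), and over the leave-one-out fits adjusted p ranged from 0.00217 to 0.177.

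Cntn2, the contactin of the juxtaparanode, was at 298 and 357 CPM in male and 364 and 406 in female 4-week libraries. The 8-week values were 366, 423 and 418 in males and 456, 455 and 453 in females. Of the 6 libraries at 8 weeks, 5 lay above every 4-week library, and the exception was male 8-week library 1. Within each sex the ages did not overlap. The share of all tested genes that separated in this way within each sex was not computed. With so few libraries per group, this separation is a description only and adds no support for a rise of Cntn2. The mean was 356 ± 44.6 (SD, n = 4) at 4 weeks and 429 ± 35.0 (n = 6) at 8 weeks, a log2 fold change of 0.27 (SE 0.06, edgeR adjusted p = 0.0198). The call was lost narrowly without male 4-week library 1 (0.22, adjusted p = 0.0539), female 4-week library 1 (0.25, 0.0543) or male 8-week library 2 (0.25, 0.0501), all by edgeR. Without the 2 libraries with lung transcripts the log2 fold change was 0.21 (adjusted p = 0.159), and without the 2 with adrenal transcripts 0.24 (adjusted p = 0.129).

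Cntnap2, the Caspr relative that pairs with the Cntn2 protein, was at 66.8 and 96.8 CPM in male and 79.5 and 99.6 in female 4-week libraries. At 8 weeks it was at 90.9, 99.5 and 110 in males and 119, 104 and 117 in females. Of the 6 libraries at 8 weeks, 4 lay above every 4-week library. The log2 fold change was 0.31 (SE 0.10, edgeR adjusted p = 0.0798), a point estimate above that of Cntn2 with a larger error. It was called without male 4-week library 2 (0.43, edgeR adjusted p = 0.00989) and with DESeq2 (0.32, adjusted p = 0.0331).

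The potassium channel subunits differed in how much they varied. Kcna1 was at 470 and 590 CPM in male and 541 and 670 in female 4-week libraries. Its 8-week levels were 475, 559 and 578 in males and 619, 585 and 653 in females, with the ages overlapping fully (log2 fold change 0.02, SE 0.08, edgeR adjusted p = 0.897). Kcna2 was at 24.0 and 86.2 CPM in male and 45.9 and 91.7 in female 4-week libraries. The 8-week values were 53.1, 63.9 and 86.2 in males and 97.0, 80.2 and 99.8 in females. Replicates of 1 group, the 4-week males, thus spanned most of the range of Kcna2, whose highest library exceeded its lowest by 4.16-fold. Its log2 fold change of 0.35 was the largest estimate of the 9 and also the least precise (SE 0.27, edgeR adjusted p = 0.494). Leaving out male 4-week library 1 or 2 gave 0.11 or 0.75, and leaving out female 4-week library 1 or 2 gave 0.17 or 0.54, so its rank among the 9 is not settled.

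Of the axonal scaffold genes, Ank3 was at 228 and 333 CPM in male and 271 and 349 in female 4-week libraries. At 8 weeks it was at 260, 288 and 310 in males and 353, 320 and 351 in females, and the log2 fold change was 0.08 (SE 0.10, edgeR adjusted p = 0.694). Its lowest value was again in male 4-week library 1, and the ages overlapped. Sptbn4 was at 135 and 142 CPM in male and 151 and 146 in female 4-week libraries. Its 8-week levels were 125, 147 and 163 in males and 146, 136 and 163 in females, with a log2 fold change of 0.03 (SE 0.07, edgeR adjusted p = 0.839). Both extremes of Sptbn4 were at 8 weeks.

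**Figure D2:**
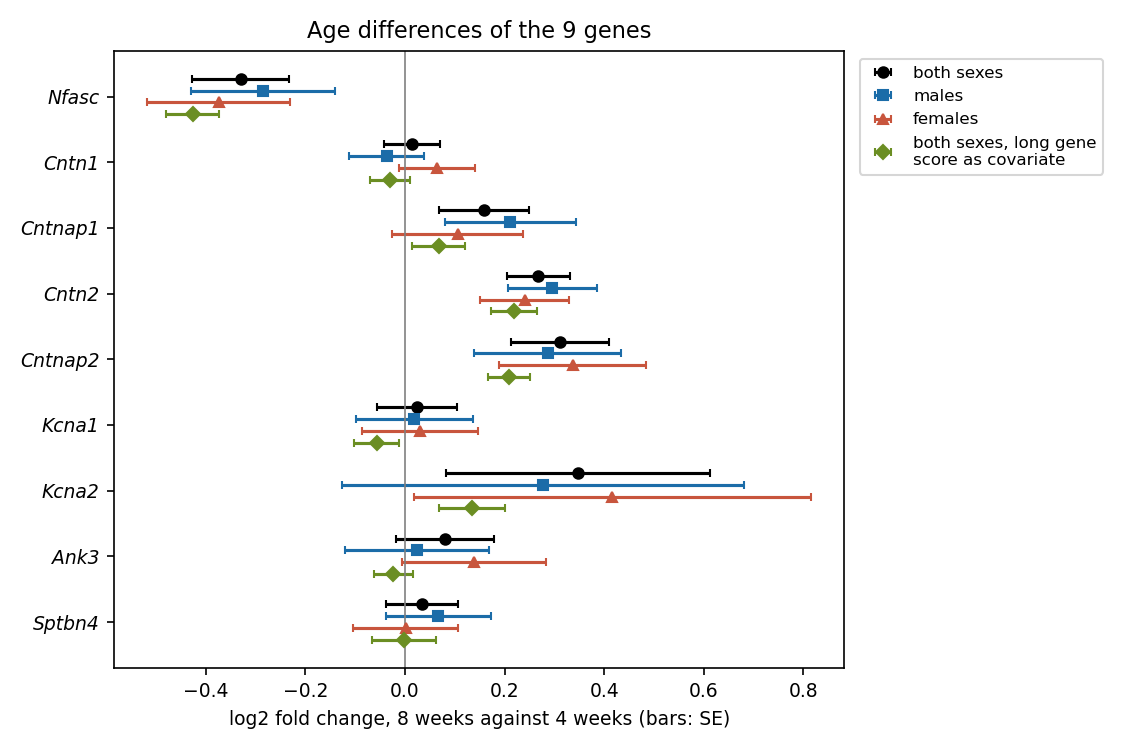
Log2 fold change from 4 to 8 weeks (x axis; bars, SE) for the 9 genes over both sexes, in males, in females, and over both sexes with the long gene score as a covariate. Nfasc lies below 0 and Cntn2 and Cntnap2 above 0 in all 4 estimates, while Cntn1, Kcna1, Ank3 and Sptbn4 lie within 0.15 of 0.

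Tested within one sex, none of the 9 genes passed. Among all tested genes 3.22% were called in males (0.837% higher, 2.39% lower) and 1.45% in females (0.238% higher, 1.22% lower). Cntn2 had log2 fold changes of 0.30 in males (edgeR adjusted p = 0.110) and 0.24 in females (0.279). Nfasc had -0.29 in males (edgeR adjusted p = 0.355) and -0.37 in females (0.296), and Cntnap2 had 0.29 and 0.34. At an unadjusted p under 0.05 there was 1 of the 9 in males, where 16.6% of all tested genes were under it, and 3 in females, where 12.1% were. The test in males depended on single libraries. Without male 4-week library 2, the estimates in males were 0.44 for Cntn2, 0.59 for Cntnap2 and 1.51 for Kcna2. Without male 4-week library 1 the same estimates were 0.18, 0.0584 and -0.33. In that fit Nfasc was at -0.55 in males and -0.37 in females. Each of these fits left 1 male library at 4 weeks, so only the estimates are given. The age effects of the sexes differed by -0.14 to 0.11 (log2, males minus females) for the 9 genes, with edgeR adjusted p from 0.988 to 1. Over all genes 0.0129% were called in that test.

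All 9 genes had a lower estimate in males than in females over both ages, from -0.06 for Sptbn4 to -0.39 for Kcna2 (log2, male minus female). The median over all tested genes was 0.0016, and the share of them with a negative estimate was not computed. As the 9 moved together over the libraries, their signs are not separate observations. None was called (edgeR adjusted p from 0.471 to 0.815), while 0.0901% of all tested genes were (0.0644% higher and 0.0257% lower in males). Nfasc (-0.24), Cntn2 (-0.20), Ank3 (-0.21) and Kcna1 (-0.20) had an unadjusted p under 0.05, as did 7.36% of all tested genes. That count of 4 was 1 without male 4-week library 1, female 4-week library 2, male 8-week library 1 or female 8-week library 3. In those fits 5.17%, 4.41%, 5.53% and 5.86% of all tested genes had an unadjusted p under 0.05. Without male 4-week library 2 the count was 6, and the share of all tested genes was 16.1%. The estimates stayed negative over left-out libraries but moved with them. Without male 4-week library 1, the library lowest in long transcripts and highest in muscle transcripts, Kcna2 was at -0.20, Nfasc at -0.15, Cntnap1 at -0.0382 and Cntnap2 at -0.0878, and without male 8-week library 1 Sptbn4 was at -0.00767. Without male 4-week library 2 Kcna2 was at -0.71 and Nfasc at -0.33. DESeq2 and limma-voom also called 0 of the 9.

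Ratios of counts within a library put the paranodal and juxtaparanodal relatives side by side without dependence on scaling. The size of a ratio depends on transcript length, so only its change is described. Where the paired genes differ in length, a change may also carry the movement of long transcripts between libraries described below. Exons span 6124 and 7177 bases for Cntn1 and Cntn2, 5440 and 9990 for Cntnap1 and Cntnap2, 4417 and 11906 for Kcna1 and Kcna2. How far that movement contributes to the ratios was not tested. The log2 ratio of Cntn1 to Cntn2 was 0.77, 0.68, 0.46 and 0.51 in the 4-week libraries. The 8-week ratios were 0.51, 0.27 and 0.38 in males and 0.32, 0.31 and 0.31 in females, so that 5 of 6 lay below every 4-week library. Its mean was 0.60 ± 0.14 (SD, n = 4) at 4 weeks and 0.35 ± 0.09 (n = 6) at 8 weeks, a difference of -0.25 (exact two-sided permutation over 210 splits, p = 0.00952, 0.0286 adjusted over the 3 ratios). The difference was -0.33 within males and -0.17 within females. Cntn1 itself hardly differed by age (log2 fold change 0.01, against 0.27 for Cntn2). This ratio thus largely repeats the Cntn2 difference in the same libraries and adds no separate support for it.

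The log2 ratio of Cntnap1 to Cntnap2 was 1.54, 1.43, 1.61 and 1.44 in the 4-week libraries. Those at 8 weeks were 1.39, 1.34 and 1.46 in males and 1.23, 1.27 and 1.36 in females. Here too 5 of 6 lay below every 4-week library, the exception being male 8-week library 3. The difference was -0.17 (exact two-sided permutation p = 0.0238, adjusted 0.0357), -0.09 within males and -0.24 within females. It did not pass without male 4-week library 1 (exact permutation p = 0.0595) or female 4-week library 1 (p = 0.0714). This ratio too uses the same libraries as the tests of its single genes and adds no separate support for a rise of Cntnap2. The log2 ratio of Kcna1 to Kcna2 was 3.37 ± 0.71 (SD, n = 4) at 4 weeks and 2.88 ± 0.22 (n = 6) at 8 weeks. That difference of -0.49 did not pass (exact two-sided permutation p = 0.119, adjusted 0.119), and without male 4-week library 1 it was -0.19.

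**Figure D3:**
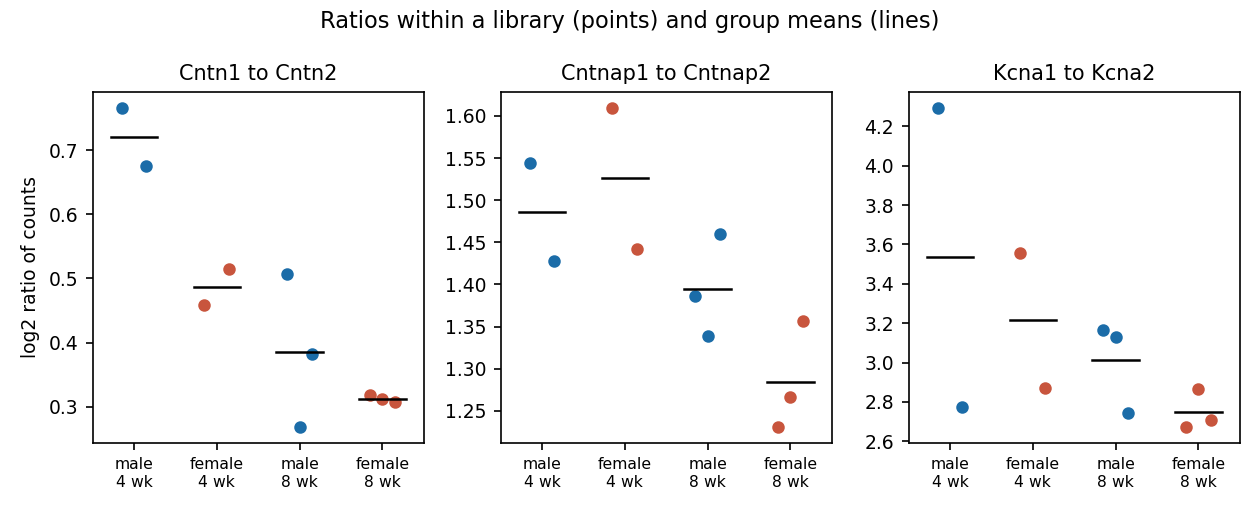
Log2 ratio of counts within each library (y axis, each panel on its own range; points) by sex and age, with group means as lines. For Cntn1 to Cntn2 and for Cntnap1 to Cntnap2, 5 of the 6 libraries at 8 weeks lie below all 4 at 4 weeks, and for Kcna1 to Kcna2 the 4-week libraries span 2.78 to 4.29.

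Both neurons and oligodendrocytes express Nfasc and Cntn2, so these genes were also set against the mean log2 CPM of each marker list, in ratios added after the data had been seen. The oligodendrocyte markers were themselves lower at 8 weeks (10 of 12 called, median -0.54), and the neuron list had a median of 0.12 with 1 called (Snap25). A gene at an unchanged level would thus rise against the oligodendrocyte list, so that ratio adds no separate support for a rise of Cntn2. Relative to the oligodendrocyte list Cntn2 was higher by 0.82 at 8 weeks, in 6 of 6 libraries above every 4-week library (exact two-sided permutation p = 0.00476, the smallest that 210 splits allow, 0.0190 adjusted over 4 ratios). Relative to the neuron list it was higher by 0.17 (exact permutation p = 0.0762, adjusted 0.102). Nfasc differed by -0.42 relative to the neuron list (exact permutation p = 0.0190, adjusted 0.0381), with 3 of 6 libraries below every 4-week library. The positive median of the neuron list enlarges this difference. The ratio also uses the libraries in which Nfasc itself was not called, so it adds no separate support for a fall of Nfasc. Relative to the oligodendrocyte list Nfasc differed by 0.23 (exact permutation p = 0.171, adjusted 0.171), 0.0887 without male 4-week library 1 and 0.32 without female 4-week library 2.

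Most of the 9 genes moved together from library to library within a group. After the group means were removed, Pearson r over the 10 libraries was 0.16 to 0.99 for the 36 pairs, with a median of 0.89. These values are a description only, since all pairs share the same libraries. In a group of 2 libraries the departures from the group mean mirror each other. Within-group r was not computed for pairs outside the 9 genes. Sptbn4 followed the others least, at 0.16 with Cntn1, 0.41 with Kcna2 and at most 0.73 with any (Cntnap1). Male 4-week library 1 was the lowest of all 10 for 6 of the 9 (Cntnap1, Cntn2, Cntnap2, Ank3, Kcna1 and Kcna2). The mean log2 level of the 9, as a departure from the mean over the 10 libraries, was -0.45 there and 0.09 in male 4-week library 2. It was -0.12 and 0.18 in the 4-week females, -0.20, -0.04 and 0.11 in the 8-week males, and 0.17, 0.05 and 0.21 in the 8-week females. Kcna2 swung most, from -1.49 in male 4-week library 1 to 0.56 in female 8-week library 3. The neuron marker list stayed between -0.13 and 0.08.

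Other long genes moved in the same direction. The median departure of the 936 other tested genes with over 8000 exonic bases and a mean log2 CPM over 3 was -0.29 in male 4-week library 1 and 0.12 in male 4-week library 2. It was -0.16 and 0.12 in the 4-week females, -0.11, -0.06 and 0.09 in the 8-week males, and 0.13, 0.04 and 0.16 in the 8-week females. The 2120 genes under 2000 bases went the other way, from 0.17 in male 4-week library 1 to -0.11 in female 8-week library 3. In 4 of 4 groups the library with the lowest sum of the 9 genes also had the lowest long gene median. In 3 of 4 it also had the highest muscle sum, and in 4 of 4 the library with the highest sum of the 9 had the lowest muscle sum. In the 4-week groups, with 2 libraries each, these muscle orders are the same fact and do not count separately. Of the 9 genes, 5 exceed 8000 exonic bases: Nfasc, Cntnap2, Ank3, Sptbn4 and Kcna2. The cause of this shared movement was not tested.

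**Figure D4:**
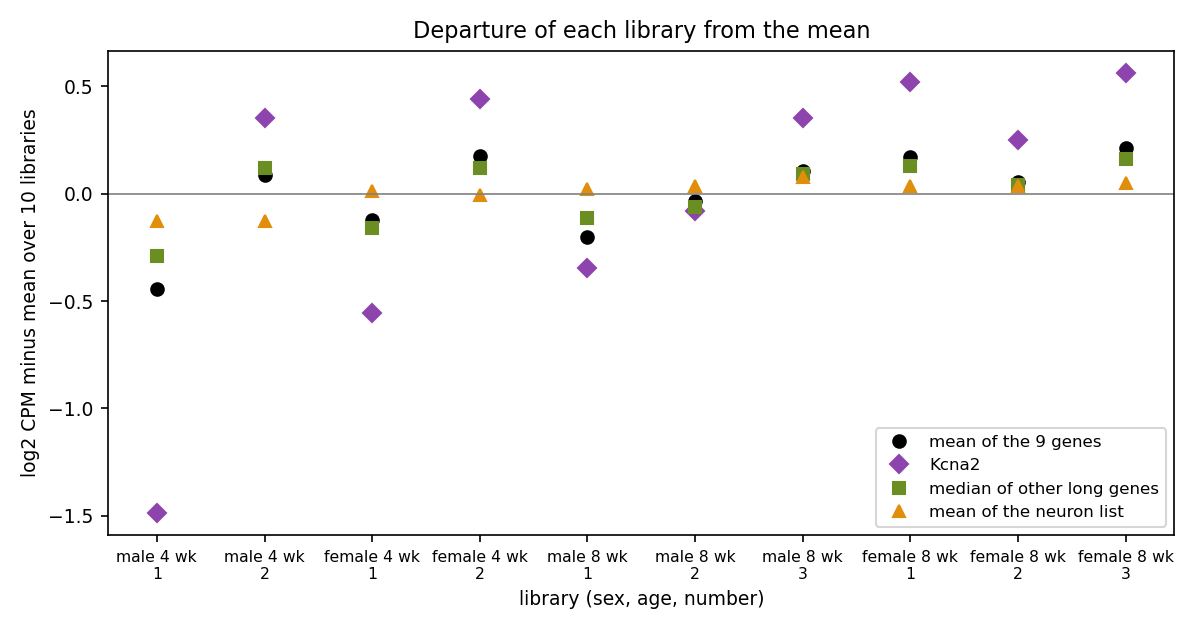
Departure of each library from the mean of the 10 (y axis, log2 CPM) for the mean of the 9 genes, Kcna2, the median of 936 other long genes and the mean of the neuron markers. The 9 genes and the other long genes dip together in male 4-week library 1, female 4-week library 1 and male 8-week library 1, while the neuron markers stay within 0.13 of 0.

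With the median of the long genes as a covariate, an alternative added after the data had been seen, the median SE of the 9 genes went from 0.09 to 0.05. Over all tested genes the median SE went from 0.096 to 0.083. The covariate itself had a Pearson r of 0.32 with age. Cntn2 remained higher (0.22, edgeR adjusted p = 0.00518), Cntnap2 was called higher (0.21, SE 0.04, adjusted p = 0.00386) and Nfasc lower (-0.43, SE 0.05, adjusted p = 5.24e-05). The Kcna2 estimate went from 0.35 to 0.13 (SE 0.07, edgeR adjusted p = 0.230). In that fit 1655 genes were called, 1014 of them among the 1028 called without the covariate. With a skeletal muscle score as the covariate, whose values do not overlap between ages, the estimate for Cntn2 was 0.04 (SE 0.14, edgeR adjusted p = 0.913) and that for Nfasc -0.95 (SE 0.17, adjusted p = 0.0249).

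The other parts of the junction were read from lists of genes known to act there. Of 13 genes of the nodal membrane and its scaffold, 11 had a positive log2 fold change (median 0.17). Over all tested genes, 8022 of 15540 did. Only Scn4b, a sodium channel beta subunit, was called (0.20, SE 0.06, edgeR adjusted p = 0.0435), at 486 ± 42.1 CPM (SD, n = 4) at 4 weeks and 558 ± 31.9 (n = 6) at 8 weeks. That call was lost in 12 of 20 alternatives, among them 8 of the 10 fits that each left out 1 library (edgeR adjusted p from 0.0307 to 0.119 over the 10), and the number of these 13 genes called higher ranged from 0 to 4. Of 10 partners of the juxtaparanode, 7 had a positive estimate (median 0.11), and Kcnab1, a cytoplasmic beta subunit of the shaker-type channels, was called higher (0.22, SE 0.05, edgeR adjusted p = 0.0144), and all of its 8-week libraries exceeded the 4-week ones. Dlg4, a membrane-associated scaffold, showed the same separation but did not pass (0.18, edgeR adjusted p = 0.0697). The Kcnab1 call was lost without male 8-week libraries 2 and 3 (edgeR adjusted p = 0.104) and without both male 4-week libraries (0.112).

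The partners of the paranode were split. Of 8, 4 fell: Ugt8a, which makes galactocerebroside (-0.96, edgeR adjusted p = 1.55e-06), Gal3st1, which sulfates it (-0.67, 2.96e-05), Mag, the myelin-associated glycoprotein (-0.41, 0.000191), and the tetraspanin Cd9 (-0.36, 0.0151). The Cd9 call was lost without male 4-week library 1 (-0.31, edgeR adjusted p = 0.0546). The other 4 of that list (Epb41l3, Sptan1, Sptbn1 and Ank2) had estimates from 0.12 to 0.19. Mag is also among the 12 oligodendrocyte markers. Of 6 genes of the nodal matrix, the proteoglycan Ncan fell (-0.32, SE 0.06, edgeR adjusted p = 0.00381) with 6 of 6 libraries below every 4-week library, and Vcan did not pass (-0.27, adjusted p = 0.0847). The other 4 of the matrix list did not pass either, with estimates from -0.14 for Hapln2 to 0.17 for Ptprz1. The Ncan call was lost without both male 4-week libraries (-0.27, edgeR adjusted p = 0.102).

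**Figure D5:**
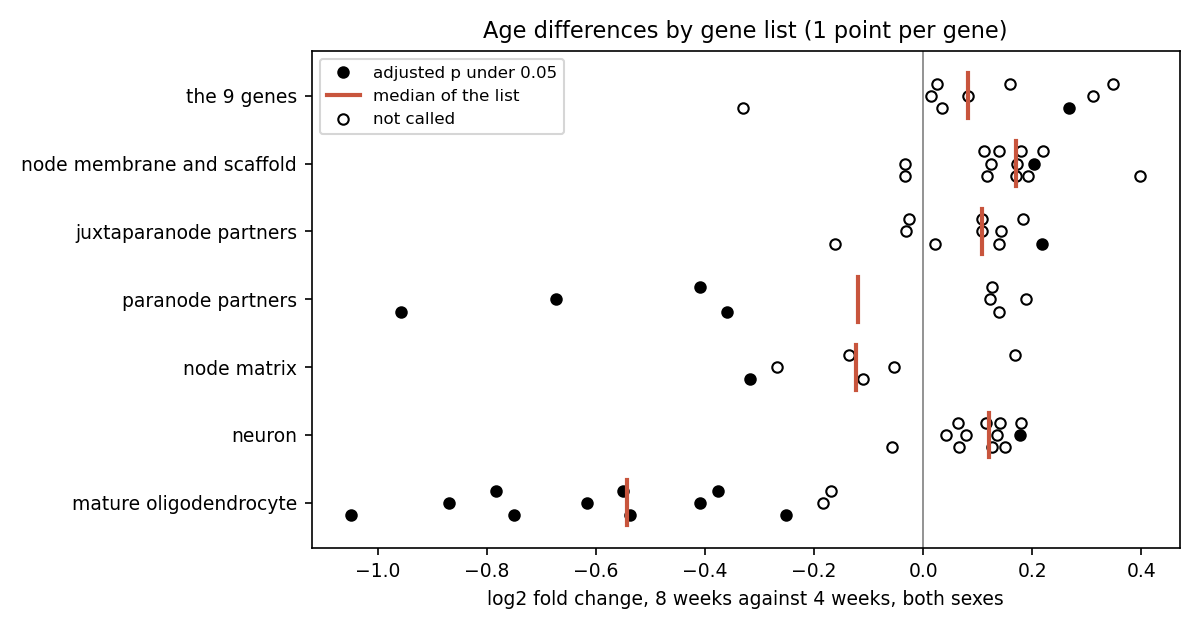
Log2 fold change from 4 to 8 weeks over both sexes (x axis), 1 point per gene, for the 9 genes, 4 lists of junction genes and 2 marker lists (filled, adjusted p under 0.05; vertical bar, median). The oligodendrocyte markers have a median of -0.54 and the neuron markers of 0.12, and of the 9 genes Nfasc alone lies below 0.

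The tested genes whose levels were most like those of Cntn2 over the 10 libraries were 6430548M08Rik and Fam155a (Pearson r = 0.98 for both). For Nfasc they were Srcin1 (0.98) and Bace1 (0.97), and for Cntnap2 they were Gabrb2 and Adcy1 (0.99 for both). These values are a measure of likeness only, with no test, and the libraries also share the movement of long transcripts. Of these 6 genes, Fam155a was called higher at 8 weeks (0.21, edgeR adjusted p = 0.0478), and the other 5 had adjusted p from 0.0566 to 0.150.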

How the data were processed

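Whole spinal cord RNA of 10 libraries was sequenced after Trizol extraction with standard Illumina libraries, per the labels' protocols. The submitters' processing notes name TopHat2 2.1.0, featureCounts and mm9. Whether counting used strand is not given in the sources used here. The deposited values are raw read counts per Entrez gene made by the authors, and 24191 of 26301 identifiers took a symbol from RefSeq (2110 did not). R 4.3.3 and edgeR 4.0.16 gave the tests (TMM scaling, filterByExpr with a minimum count of 10 and total of 15, quasi-likelihood F test, Benjamini-Hochberg). Models were sex plus age (7 residual degrees of freedom) and the 4 groups (6). DESeq2 1.42.0, limma 3.58.1, other scaling, no filter, left-out libraries, a replicate block and covariates were alternatives. Scripts were tested on simulated data. The 9 genes and all lists (116 genes, all matched) were chosen with earlier results of these data known. Named were the 9 genes, list genes that passed or else those with the lowest p, leading markers (some list genes are not reported here), and for the 3 genes with the lowest p their 2 most alike genes. Exon lengths covered 95.6% of tested genes. Counting error is small at these depths, with at least 208 counts behind each value of the 9 genes.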

Additional observations from a re-analysis of the deposited data

How the results depend on the processing

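All changes are log2, 8 against 4 weeks. For age over both sexes, 1028 of all 15540 tested genes were called as described above. The number was 1142 with DESeq2 and 1655 with the long gene score, and 1196 of 20987 tested genes without the low count filter. Of the 9 genes, the number called higher and lower (1 and 0) was 2 and 1 without the low count filter, with DESeq2 and with the long gene score, 0 higher without male 8-week libraries 2 and 3, 0 and 1 without both male 4-week libraries and with the muscle score, and 0 to 2 and 0 to 1 over left-out libraries. In males left-out libraries gave 0 to 3 higher and 0 to 1 lower, and in females 0 to 1 lower. Over all genes, calls higher and lower were 74 and 400 without male 8-week libraries 2 and 3, 71 and 322 without both male 4-week libraries, 12 and 35 with the muscle score and 622 higher with the long gene score, with 143 to 550 higher over left-out libraries. In males these ranged from 29 to 570 and 159 to 629, and in females from 7 to 74 and 55 to 322 (289 lower without the filter). Sex calls were 51 and 9 without the filter, 27 and 8 with DESeq2, and 7 to 21 and 3 to 7 over left-out libraries. The interaction had 1 lower call with limma-voom and 1 to 2 over left-out libraries.

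The following estimates changed sign. Without male 8-week libraries 2 and 3, Sptbn4 was -0.0499 and Kcna1 -0.0351. With the muscle score Cntn1 was -0.15, Cntnap1 -0.49, Cntnap2 -0.30, Ank3 -0.49, Sptbn4 -0.31, Kcna1 -0.39 and Kcna2 -1.37, and with the long gene score Cntn1 was -0.0303, Ank3 -0.0231, Sptbn4 -0.00231 and Kcna1 -0.0567. With limma-voom Sptbn4 in females was -0.00213 and the Kcna2 interaction 0.00632. Over left-out libraries Cntn1 ranged from -0.0327 to 0.0621, Kcna1 from -0.0298 to 0.0943 and Sptbn4 from -0.0107 to 0.0785. In males the ranges were -0.55 to 0.0618 for Nfasc, -0.11 to 0.0563 for Cntn1, -0.21 to 0.33 for Ank3, -0.0251 to 0.17 for Sptbn4, -0.13 to 0.20 for Kcna1 and -0.33 to 1.51 for Kcna2. In females they were -0.0329 to 0.18 for Cntn1, -0.0255 to 0.34 for Ank3, -0.0728 to 0.0587 for Sptbn4 and -0.11 to 0.20 for Kcna1. Interaction ranges were -0.18 to 0.43 for Nfasc, -0.21 to 0.000222 for Cntn1, -0.0788 to 0.34 for Cntnap1, -0.0599 to 0.20 for Cntn2, -0.28 to 0.25 for Cntnap2, -0.35 to 0.19 for Ank3, -0.0264 to 0.16 for Sptbn4, -0.18 to 0.17 for Kcna1 and -0.75 to 1.09 for Kcna2.

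The ratio of Cntn1 to Cntn2 changed by -0.24 without male 8-week libraries 2 and 3 and -0.14 without both male 4-week libraries (exact permutation p = 0.0571 and 0.0714). That of Cntnap1 to Cntnap2 changed by -0.19 without both male 4-week libraries (exact permutation p = 0.0714) and by -0.19 to -0.13 over left-out libraries, and Kcna1 to Kcna2 by -0.69 to -0.19. Cntn2 relative to the neuron list ranged from 0.11 to 0.21, and Nfasc relative to it was -0.40 without male 8-week libraries 2 and 3 (exact permutation p = 0.114). The cause of these changes was not tested.

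Whether the replicate numbers pair the samples was not settled. Same-numbered libraries of different groups had correlations of their deviations from -0.21 to 0.24 in 13 pairs, and 5 exceeded 0.1. Libraries with different numbers had -0.25 to 0.25 in 24 pairs, and 6 exceeded 0.1. In groups of 2 libraries the deviations mirror each other, so the pairs are not independent and cannot decide the question. With a replicate block 808 genes were called for age, 720 of them among the 1028, and of the 9 genes Cntn2 was called higher and 1 lower (Nfasc, -0.36, edgeR adjusted p = 0.0235). Under the block Sptbn4 was -0.0492 and Kcna1 -0.0149, in males Ank3 was -0.000823, Sptbn4 -0.0179 and Kcna1 -0.0243, in females Sptbn4 was -0.0803 and Kcna1 -0.00566, and sex calls were 31 and 7.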
